A study of Homo sapiens with 12 samples.

Results

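The 10 genes described here encode subunits of the transcription factor NF-kB (NFKB1, NFKB2, RELA, RELB), its inhibitors (NFKBIA, NFKBIE), feedback regulators of its signalling (TNFAIP3, BIRC3) and downstream target genes (ICAM1, SOD2). They were selected by symbol, with earlier results of these data known. All 10 were found among the 36502 genes of the count table, and all 10 passed the count filter that left 17262 genes for testing. Expression was measured by RNA sequencing in 12 libraries of HT1080, a human fibrosarcoma line, with 2 libraries in each of 6 groups. The cells carry Dam-LaminB1, a destabilised fusion of the Dam adenine methyltransferase to Lamin B1, and a doxycycline-repressed tracer of methylated DNA. In the VP16 clone the tracer carries the VP16 activation domain, and in the GFP clone it is the GFP fusion without VP16. Each construct is represented by 1 clone, so clone and construct cannot be told apart. The tracer with Dam-LaminB1 groups had 50 ng/ml doxycycline for 3 days, then 24 h without it together with 500 nM Shield1, the compound that stabilises Dam-LaminB1. The tracer groups had the same doxycycline schedule without Shield1, and the uninduced groups had 50 ng/ml doxycycline for 4 days. Every group was therefore exposed to doxycycline, and tracer expression and doxycycline withdrawal coincide. Whether the paired libraries of a group are separate cultures is not in the labels, and the p-values cover only the spread among the libraries sequenced.

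NF-kB proteins bind DNA as dimers. In resting cells the canonical p50-RelA dimer is held in the cytoplasm by I-kappa-B proteins, and signals from TNF, interleukin-1 or pathogen receptors release it by degrading these inhibitors. In the noncanonical pathway, the kinase NIK, the product of MAP3K14, leads to processing of the NFKB2 precursor p100 to p52, which pairs with RelB. Several NF-kB genes are themselves targets of the factor, among them NFKB2, RELB, NFKBIA, NFKBIE, TNFAIP3 and BIRC3, which closes positive and negative feedback loops.

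Promoters are shown for 4 of these target genes, because an NF-kB motif lies in them and the genes are compared below. RefSeq promoter windows (GRCh38.p14, from 250 bases before to 50 after a start site) were matched by symbol for 8 of the 10 genes, with 15 windows in all. A 10-letter kappa-B consensus, searched on both strands with overlapping matches allowed, was present in 6 windows of 5 genes, and in 3956 of all 35116 windows of the table (11.3%). Capitals mark the matches, and each sequence reads along the strand of its gene. The BIRC3 window is chr11:102317234-102317533 (+ strand), with matches beginning 199 and 135 bases before the start site. The TNFAIP3 window is chr6:137867009-137867308 (+ strand), with matches 67 and 55 bases before it. The NFKBIA window is chr14:35404700-35404999 (- strand), with a match 81 bases before it. The NFKB2 window, at the second of the 3 start sites matched, is chr10:102394328-102394627 (+ strand), with matches 107, 106 and 78 bases before it, the first pair overlapping. The third NFKB2 window, not printed, holds matches 176 and 21 bases before its start site, and the first holds none. NFKB1 held a match 49 bases before the first of its start sites, and the second NFKB1 window and those of RELA, ICAM1 and SOD2 held none. A match is a run of letters, not a measured binding site.
BIRC3: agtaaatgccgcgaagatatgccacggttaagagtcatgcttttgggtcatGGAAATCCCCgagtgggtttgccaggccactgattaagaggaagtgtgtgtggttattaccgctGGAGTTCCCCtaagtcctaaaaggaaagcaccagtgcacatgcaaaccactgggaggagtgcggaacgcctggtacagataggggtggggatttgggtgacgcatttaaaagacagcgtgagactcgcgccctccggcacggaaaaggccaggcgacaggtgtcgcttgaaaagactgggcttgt
TNFAIP3: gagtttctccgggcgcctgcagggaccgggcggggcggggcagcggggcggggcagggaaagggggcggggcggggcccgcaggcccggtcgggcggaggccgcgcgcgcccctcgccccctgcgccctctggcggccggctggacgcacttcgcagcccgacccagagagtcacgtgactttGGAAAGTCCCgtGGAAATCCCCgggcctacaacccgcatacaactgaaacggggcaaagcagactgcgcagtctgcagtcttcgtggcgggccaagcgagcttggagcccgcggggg
NFKBIA: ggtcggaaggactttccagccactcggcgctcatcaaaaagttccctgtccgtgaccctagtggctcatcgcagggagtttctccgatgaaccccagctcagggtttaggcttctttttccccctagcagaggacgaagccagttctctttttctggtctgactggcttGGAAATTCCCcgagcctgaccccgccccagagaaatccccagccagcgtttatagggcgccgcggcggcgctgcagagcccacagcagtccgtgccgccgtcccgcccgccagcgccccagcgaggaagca
NFKB2: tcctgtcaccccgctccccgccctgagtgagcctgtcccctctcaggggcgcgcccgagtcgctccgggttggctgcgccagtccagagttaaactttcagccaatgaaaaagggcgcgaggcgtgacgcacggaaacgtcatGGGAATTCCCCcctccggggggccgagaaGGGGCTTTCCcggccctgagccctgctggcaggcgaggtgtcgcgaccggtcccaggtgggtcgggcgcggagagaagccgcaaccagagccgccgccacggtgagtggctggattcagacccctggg

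The libraries held 18774905 to 24827396 counts. Sample titles reuse the same index sequences in 2 sets of 6 libraries, 1 library of each group per set, called index set 1 and index set 2 here. Deviations from the group means were correlated within a set for all 15 pairs of groups (r from 0.415 to 0.858). The GFP tracer with Dam-LaminB1 and GFP tracer libraries of index set 1 stood apart on the first principal component (45.4% of variance), at -87.0 and -78.2, with the GFP uninduced library of that set at -16.2 and the others between -2.82 and 41.0. In these 2 libraries the summed level of 14 ATF4 and CHOP stress genes was 2961 and 3006 CPM (read counts relative to the library total, with TMM scaling), against 791 to 1232 CPM in the other 10 libraries. VIM, a mesenchymal marker, was at 1743 and 2320 CPM in these 2 libraries and at 3304 to 4202 CPM in the other 10. The 12 mesenchymal markers summed to 4233 and 4211 CPM, against 5228 to 7704 CPM. Most single markers did not follow VIM. Against the GFP uninduced library of that set, 7 and 6 of the 10 mesenchymal markers tested were higher in the 2 libraries. Their median log2 CPM differences were 0.21 and 0.07. The 10 epithelial markers summed to 167 and 227 CPM in the 2 libraries and 223 to 329 CPM in the other 10, mostly from the keratins KRT8 and KRT18. Of the single epithelial markers, ESRP1 was at 10.7 and 6.76 CPM in the 2 libraries and at 0.0889 to 0.377 CPM in the other 10, while EPCAM did not exceed 0.245 CPM and CDH1 did not exceed 0.650 CPM in any library. The 11 blood markers summed to 257 and 219 CPM in the 2 libraries and 129.7 to 366 CPM in the other 10. Most of this came from CD68, and the pan-leukocyte marker PTPRC was at 0 to 0.089 CPM. The part of these markers in the NF-kB values was not tested.

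NFKB1 and NFKB2, at chr4:103422486-103538459 and chr10:104154229-104162281 (GRCh37, as for all gene positions), encode the precursors of the p50 and p52 subunits. For each clone, values follow the order tracer with Dam-LaminB1, tracer, uninduced. In index set 1, NFKB1 had 62.2, 63.2 and 68.3 CPM in the VP16 clone and 124, 141 and 87.6 CPM in the GFP clone. In index set 2 it had 70.7, 69.8 and 72.9 CPM in the VP16 clone and 95.2, 101 and 91.4 CPM in the GFP clone. Every VP16 library lay below every GFP library, and the index sets overlapped. NFKB2 had 118, 110.7 and 101 CPM in the VP16 clone and 269.7, 249.6 and 95.0 CPM in the GFP clone in index set 1. Its values in index set 2 were 74.6, 79.0 and 75.6 CPM in the VP16 clone and 65.2, 71.8 and 73.7 CPM in the GFP clone. Here all libraries of index set 1 lay above all of index set 2, with the tracer and tracer with Dam-LaminB1 libraries of the GFP clone highest.

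RELA (chr11:65421067-65430565) and RELB (chr19:45504695-45541452) encode Rel proteins with a transactivation domain, which pair mainly with p50 and with p52. In index set 1, RELA had 89.4, 92.6 and 96.8 CPM in the VP16 clone and 136, 135 and 113 CPM in the GFP clone. Index set 2 gave it 76.4, 81.7 and 81.2 CPM in the VP16 clone and 100.2, 100.7 and 102 CPM in the GFP clone. RELA thus separated the clones without overlap, while the index sets overlapped. RELB had 24.1, 22.7 and 22.9 CPM in the VP16 clone and 59.5, 56.4 and 21.5 CPM in the GFP clone in index set 1. Its values in index set 2 were 14.2, 14.2 and 13.6 CPM in the VP16 clone and 12.8, 11.4 and 12.0 CPM in the GFP clone. RELB separated the index sets without overlap, like NFKB2.

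**Figure D1:**
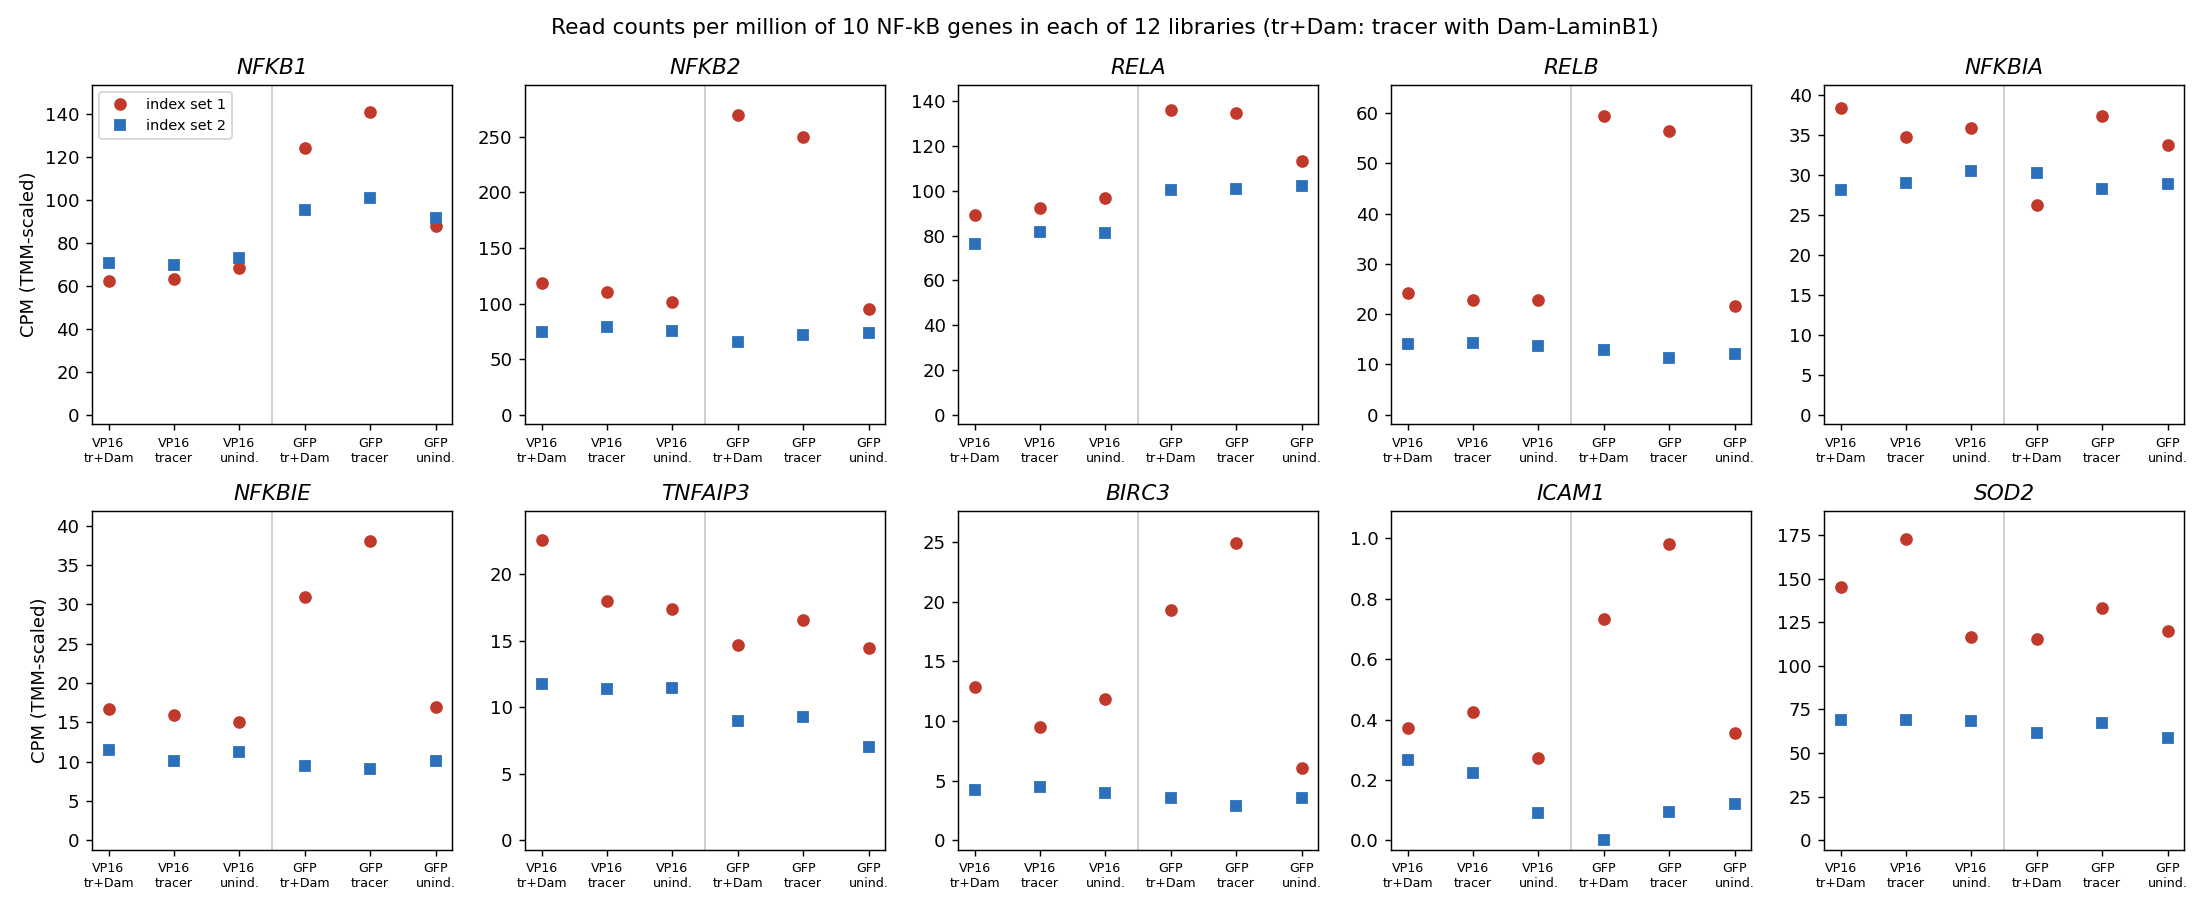
CPM (TMM-scaled, linear axis from 0) of the 10 genes in each of the 12 libraries, by clone and condition, with index set 1 as red circles and index set 2 as blue squares. For NFKB2, RELB, NFKBIE, TNFAIP3, BIRC3, ICAM1 and SOD2 every red circle lies above every blue square, and for NFKB1 and RELA every VP16 library lies below every GFP library.

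NFKBIA (chr14:35870717-35873955) encodes I-kappa-B alpha, the inhibitor that is degraded and resynthesised fastest, and NFKBIE (chr6:44225919-44233500) encodes I-kappa-B epsilon. NFKBIA had 38.3, 34.8 and 35.9 CPM in the VP16 clone and 26.3, 37.3 and 33.8 CPM in the GFP clone in index set 1. Index set 2 gave NFKBIA 28.1, 29.03 and 30.5 CPM in the VP16 clone and 30.3, 28.2 and 28.8 CPM in the GFP clone. The GFP tracer with Dam-LaminB1 library of index set 1, where NFKB2 and RELB were highest, had the lowest NFKBIA of all 12 libraries. In index set 1, NFKBIE had 16.8, 15.9 and 15.1 CPM in the VP16 clone and 30.9, 38.1 and 16.9 CPM in the GFP clone. In index set 2 it had 11.5, 10.0 and 11.2 CPM in the VP16 clone and 9.44, 9.04 and 10.1 CPM in the GFP clone. Its pattern was that of RELB rather than that of NFKBIA, with no overlap between the index sets.

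TNFAIP3 (chr6:138188351-138204449) encodes A20, a ubiquitin-editing enzyme that shuts down signalling to the I-kappa-B kinases, and BIRC3 (chr11:102188215-102210134) encodes cIAP2, a ubiquitin ligase of TNF receptor complexes that also takes part in the turnover of NIK. In index set 1, TNFAIP3 had 22.6, 18.0 and 17.4 CPM in the VP16 clone and 14.7, 16.5 and 14.5 CPM in the GFP clone. The other set gave it 11.8, 11.4 and 11.5 CPM in the VP16 clone and 8.93, 9.23 and 7.00 CPM in the GFP clone. Within each index set, all VP16 libraries lay above all GFP libraries, while over both sets the clones overlapped. The share of all genes with such a separation within sets was not counted. BIRC3 had 12.9, 9.52 and 11.8 CPM in the VP16 clone and 19.3, 24.9 and 6.03 CPM in the GFP clone in index set 1. Its values in index set 2 were 4.25, 4.45 and 3.96 CPM in the VP16 clone and 3.54, 2.92 and 3.54 CPM in the GFP clone. The lowest BIRC3 library of index set 1 was the GFP uninduced one. TNFAIP3 overlaps a lincRNA with 2 to 16 counts per library.

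SOD2 (chr6:160100096-160183561) encodes the mitochondrial manganese superoxide dismutase, and ICAM1 (chr19:10381517-10397291) a leukocyte adhesion molecule of the cell surface. SOD2 had 145, 172 and 117 CPM in the VP16 clone and 116, 133 and 120.1 CPM in the GFP clone in index set 1. Index set 2 gave SOD2 68.8, 69.1 and 68.2 CPM in the VP16 clone and 61.5, 67.2 and 58.7 CPM in the GFP clone. All of index set 1 again lay above all of index set 2. The SOD2 span overlaps WTAP, with 1180 to 1418 counts, and ACAT2, with 593 to 1629 counts, and the use of strand in counting is not stated, so the SOD2 count is uncertain. ICAM1 was near the limit of detection, with 9, 9 and 5 counts in the VP16 clone and 18, 20 and 8 counts in the GFP clone in index set 1. The counts in index set 2 were 6, 5 and 2 in the VP16 clone and 0, 2 and 3 in the GFP clone, which overlap the first set in counts though not in CPM. The count of 0 allows a level of up to 0.126 CPM, the value of 3 counts in that library. Per kilobase of exon, NFKB2 ranged from 14.6 to 60.2, RELA from 14.0 to 24.9, NFKB1 from 9.93 to 22.5 and NFKBIA from 11.1 to 16.2 CPM over the 12 libraries. On the same per-length scale RELB and NFKBIE reached 19.6 and 14.8, SOD2 10.5, TNFAIP3 4.47, BIRC3 3.32 and ICAM1 0.264 CPM per kilobase. The length used is that of all annotated exons of a gene merged, 16493 bases for SOD2 and 3035 for RELB. The place of SOD2 on this scale depends on that length and on its uncertain count.

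The 2 index sets were compared within groups, with 1 term per group and 1 for the set. BIRC3, SOD2, TNFAIP3, RELB, NFKBIE, NFKB2, RELA and ICAM1 were higher in index set 1 than in index set 2, 8 of the 10 genes, at an adjusted p under 0.05 (edgeR's quasi-likelihood test with Benjamini-Hochberg adjustment over all genes tested). Over all genes 15.6% were higher and 12.6% lower, so that 28.2% differed in either direction. Because the 10 genes were chosen with earlier results of these data known, their share beside that of all genes is a description only. BIRC3 was higher by 1.76 ± 0.29 on the log2 scale (SE, adjusted p = 0.0044), with 14.1 ± 6.9 CPM in index set 1 and 3.78 ± 0.56 CPM in index set 2 (SD, n = 6 each). SOD2 was higher by 1.02 ± 0.07 (adjusted p = 0.00020), with 134 ± 22 CPM in index set 1 and 65.6 ± 4.4 CPM in index set 2. RELB was higher by 1.26 ± 0.26 (adjusted p = 0.011), NFKBIE by 1.03 ± 0.23 (adjusted p = 0.015), NFKB2 by 0.96 ± 0.25 (adjusted p = 0.026) and TNFAIP3 by 0.80 ± 0.08 (adjusted p = 0.00069). ICAM1 was higher by 1.91 ± 0.54 (adjusted p = 0.033), from 69 counts in all of index set 1 against 18 counts in all of index set 2. RELA was higher by 0.28 ± 0.06 (adjusted p = 0.010). The differences of NFKBIA, 0.23 ± 0.09 (adjusted p = 0.091), and NFKB1, 0.06 ± 0.10 (adjusted p = 0.67), did not pass. The median difference was 0.99 over the 10 genes and 0.01 over all genes. Leaving out 1 library at a time kept the differences of BIRC3, SOD2, TNFAIP3, RELB, NFKBIE and RELA past the threshold. A library without its partner adds nothing to the index-set term. Leaving out either library of a group is therefore nearly the same check. NFKB2 did not pass without either GFP tracer library (0.78 without that of index set 1, 0.77 without that of index set 2) or without either VP16 tracer with Dam-LaminB1 library (1.00 and 1.01). ICAM1 did not pass without either GFP uninduced (1.96 and 1.96), GFP tracer (1.59 and 1.59) or VP16 uninduced library (1.96 and 1.94), and NFKBIA passed without either GFP tracer with Dam-LaminB1 library (0.30 and 0.30).

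The direction was the same in every group for most of these genes. The library of index set 1 was higher than its partner in 6 of 6 groups for 8 genes, in 5 of 6 for NFKBIA and in 2 of 6 for NFKB1, and 17.8% of all genes were higher in 6 of 6. For 7 of the 10 genes the index sets did not overlap in CPM, with index set 1 above, as for 7.35% of all genes. ICAM1 is among these 7, though its sets overlap in counts. The set numbers are not conditions of the study, and what else differed between the sets is not in the labels. In bulk RNA, fewer cells of a type and less RNA per cell cannot be told apart.

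The 2 GFP libraries that stood apart carried part of the size of these differences. Without them 9 of the genes could be tested, since ICAM1 then fell below the count filter, and 8 were higher and 1 was lower in index set 1 (39.6% of all genes differed and 19.2% were higher). BIRC3 was then higher by 1.28 ± 0.13 (adjusted p = 8.3e-06), RELB by 0.76 ± 0.06 (adjusted p = 6.5e-07), NFKBIE by 0.59 ± 0.08 (adjusted p = 3.0e-05) and NFKB2 by 0.48 ± 0.05 (adjusted p = 4.7e-06). TNFAIP3 and SOD2, at 0.80 ± 0.08 and 1.05 ± 0.08, moved little, NFKBIA now passed at 0.29 ± 0.06 (adjusted p = 0.00098), and NFKB1 was lower, at -0.13 ± 0.04 (adjusted p = 0.020). Within the VP16 clone alone, 8 of 9 genes were higher and NFKB1 was lower, at -0.14 ± 0.04 (adjusted p = 0.012), where 43.5% of all genes differed and 21.9% were higher. BIRC3 was higher there by 1.43 ± 0.11, RELB by 0.74 ± 0.07 and NFKB2 by 0.53 ± 0.05.

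Within the GFP clone alone, 4 of 10 genes were higher, against 3.79% of all genes, and 5.32% of all genes differed. These were RELB by 1.79 ± 0.32 (adjusted p = 0.049), NFKBIE by 1.5 ± 0.28 (adjusted p = 0.0496), SOD2 by 0.96 ± 0.10 (adjusted p = 0.031) and TNFAIP3 by 0.85 ± 0.15 (adjusted p = 0.046). BIRC3, at 2.11 ± 0.46 (adjusted p = 0.063), and NFKB2, at 1.4 ± 0.35 (adjusted p = 0.074), did not pass. The difference between the clones, VP16 minus GFP, was itself tested, and no gene passed (0 of 17262, 0%; 3145 had an unadjusted p under 0.05). RELB had -1.07 ± 0.36 (adjusted p = 0.25) and NFKBIE -0.97 ± 0.32 (adjusted p = 0.25) in this test. Once the 2 libraries that stood apart are left out, the GFP uninduced pair alone informs the GFP side of this test. Without the 2 libraries that stood apart, 530 genes passed it (3.02%), none of them among the 9 genes tested, of which 1, BIRC3, had an unadjusted p under 0.05 (0.67 ± 0.25, adjusted p = 0.18).

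**Figure D2:**
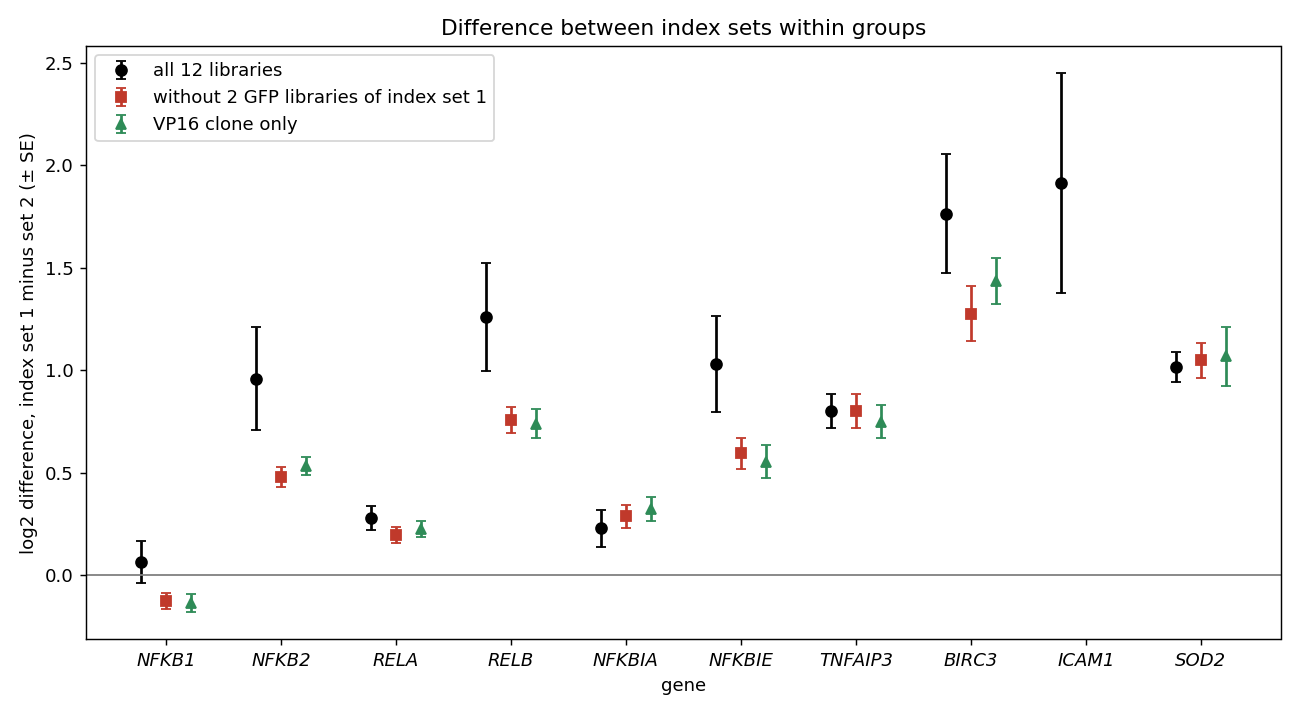
Log2 difference between index set 1 and index set 2 within groups, with its SE, for each gene, from all 12 libraries (black), without the GFP tracer and GFP tracer with Dam-LaminB1 libraries of index set 1 (red) and from the VP16 clone alone (green). BIRC3 lay at 1.76, 1.28 and 1.43, SOD2 and TNFAIP3 were nearly level across the fits, and NFKB1 lay at 0.06 with all libraries and below 0 in the other fits.

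The tracer was compared with the uninduced state in each clone, the comparison that the induction scheme sets up. No gene passed in either clone (0% of genes; 72 in the VP16 clone and 125 in the GFP clone had an unadjusted p under 0.05 with edgeR, and DESeq2 and limma-voom also called 0), so none of the 10 genes was called. With the VP16 clone's 6 libraries alone and the index set as a block, 139 genes passed (0.861%), none of them among the 9 NF-kB genes tested. In the VP16 clone the median of the 10 genes was 0.001 on the log2 scale. In the GFP clone all 10 values were positive, with a median of 0.62 against 0.01 over all genes. NFKB1 had 0.43 ± 0.18 (unadjusted p = 0.045, adjusted p = 1.0), NFKB2 0.93 ± 0.69, RELB 1.01 ± 0.84, NFKBIE 0.80 ± 0.70 and BIRC3 1.54 ± 1.11 on the log2 scale. The last 4 values were each smaller than 2 times their SE.
Within single index sets the GFP values came apart, while the medians of the VP16 clone were 0.02 in index set 1 and 0.01 in index set 2. In index set 1 of the GFP clone, tracer minus uninduced was positive for 10 of 10 genes, with a median of 0.92 (log2 CPM, 1 library minus 1 library) and values of 2.03 for BIRC3, 1.39 for NFKB2, 1.38 for RELB and 1.16 for NFKBIE. In index set 2 it was positive for 3 of 10, with a median of -0.03 and values of -0.27, -0.04, -0.08 and -0.15 for the same genes. The stress genes of the ATF4 and CHOP list moved with it, 14 of 14 positive with a median of 2.45 in index set 1, against a median of -0.16 in index set 2; their part in the NF-kB values was not tested.

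**Figure D3:**
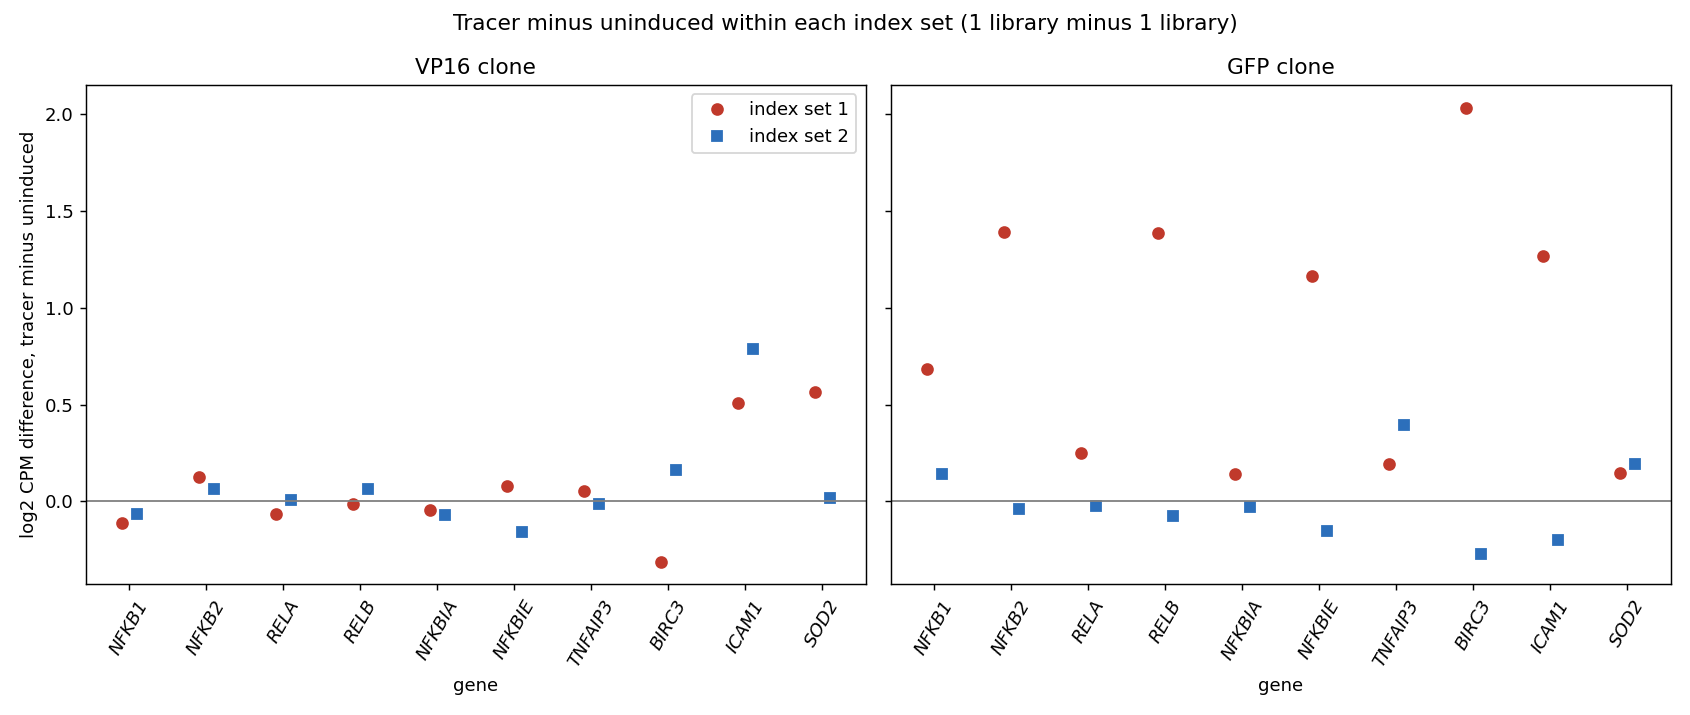
Tracer minus uninduced difference in log2 CPM for each gene within each index set (1 library minus 1 library), for the VP16 clone on the left and the GFP clone on the right. In the GFP clone BIRC3, NFKB2, RELB, NFKBIE and ICAM1 lay above 1 in index set 1 and below 0 in index set 2; in the VP16 clone all values lay between -0.31 and 0.79.

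Addition of Shield1, which stabilises Dam-LaminB1, was followed in the tracer with Dam-LaminB1 groups. Against the tracer alone, and against the uninduced state with which it shares libraries of the preceding comparison, no gene passed in either clone (0% in all 4 comparisons; 53 to 228 genes had an unadjusted p under 0.05, and DESeq2 and limma-voom called 0). With the VP16 clone's 6 libraries alone and the index set as a block, 13 genes passed against the tracer (0.0806%) and 1573 against the uninduced state (9.75%), none of them among the 9 NF-kB genes tested. TNFAIP3 was nearest, at 0.21 ± 0.10 against the tracer (adjusted p = 0.49) and 0.24 ± 0.10 against the uninduced state (adjusted p = 0.12). Dam-LaminB1 against tracer gave a median over the 10 genes of 0.04 in the VP16 clone, with 6 positive, and -0.16 in the GFP clone, with 3 positive. Dam-LaminB1 against uninduced gave 0.11 in the VP16 clone and 0.44 in the GFP clone, with 8 positive in each. In index set 1 of the GFP clone NFKB2 and RELB stayed within 0.11 and 0.08 of the tracer library on the log2 scale, while NFKBIA was 0.51 below it. The differences between clones in the tracer response and in the Dam-LaminB1 response were tested as well, and no gene passed in either (0% in both; 94 and 50 genes had an unadjusted p under 0.05, and DESeq2 and limma-voom called 0).

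The clones were compared over all conditions. NFKB1 was lower in the VP16 clone than in the GFP clone, with 67.8 ± 4.3 CPM in VP16 libraries and 107 ± 21 CPM in GFP libraries (SD, n = 6 each). Its difference was -0.64 ± 0.11 on the log2 scale (edgeR's quasi-likelihood test, adjusted p = 0.010). It was the 1 member called of 10, while 7.64% of all genes differed between the clones. RELA, with 86.3 ± 7.8 CPM in VP16 libraries and 115 ± 17 CPM in GFP libraries, had -0.41 ± 0.12 (adjusted p = 0.070). It passed without the GFP tracer or the GFP tracer with Dam-LaminB1 library of index set 2 (-0.47 in both fits). NFKB1 and RELA were the 2 genes of the 10 whose libraries did not overlap between clones, with VP16 below GFP as for 6.08% of all genes.
With the index set as a block, which uses the pairing of the libraries, 3 of the 10 genes were called, against 20.9% of all genes. NFKB1 was lower, at -0.64 ± 0.10 (adjusted p = 0.0046), RELA was lower at -0.40 ± 0.06 (adjusted p = 0.0027), and TNFAIP3 was higher by 0.40 ± 0.08 in the VP16 clone (adjusted p = 0.012). Without the 2 libraries that stood apart and with the block, 5 of the 9 genes tested were called, against 33.3% of all genes. NFKB1 was then lower at -0.46 ± 0.04 (adjusted p = 6.6e-07) and RELA at -0.34 ± 0.04 (adjusted p = 8.8e-06), and TNFAIP3, BIRC3 and NFKB2 were higher by 0.37 ± 0.09 (adjusted p = 0.0044), 0.52 ± 0.15 (adjusted p = 0.016) and 0.15 ± 0.05 (adjusted p = 0.032). With all libraries and no block BIRC3 and NFKB2 had -0.23 ± 0.63 and -0.50 ± 0.40, and with all libraries and the block -0.10 ± 0.28 and -0.37 ± 0.25. Without the 2 libraries and with no block they had 1.07 ± 0.49 and 0.33 ± 0.18. That fit leaves 2 GFP groups with index set 2 only, while every VP16 group keeps both sets. Clone and index set are therefore mixed in it, and it says nothing separate about the sign. With the block, the sign was positive without the 2 libraries and negative with them.

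Between the uninduced clones none of the 10 genes was called, at 0.278% of all genes, nor with the block, at 1.89% of all genes; 0 and 2 of the 10 had an unadjusted p under 0.05, and DESeq2 and limma-voom called none of them. The difference was -0.34 ± 0.19 for NFKB1 and -0.28 ± 0.20 for RELA. Without the 2 libraries that stood apart, neither of which is uninduced, and with the block, 4 of 9 genes were called, against 21% of all genes. NFKB1 was lower at -0.36 ± 0.06 (adjusted p = 0.00045) and RELA at -0.30 ± 0.05 (adjusted p = 0.0013). TNFAIP3 and BIRC3 were higher in the VP16 clone in that fit, by 0.45 ± 0.12 (adjusted p = 0.017) and 0.63 ± 0.19 (adjusted p = 0.035).

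The balance of noncanonical to canonical subunit transcripts was expressed as a ratio of read counts within a library, which is free of scaling but not of gene length and is therefore compared only between libraries. NFKB2 over NFKB1 was 1.90, 1.75 and 1.49 in the VP16 clone and 2.18, 1.77 and 1.08 in the GFP clone in index set 1. The other set gave 1.05, 1.13 and 1.04 in the VP16 clone and 0.685, 0.711 and 0.807 in the GFP clone. The index sets overlapped through the GFP uninduced library of index set 1. RELB over RELA was 0.270, 0.245 and 0.237 in the VP16 clone and 0.437, 0.418 and 0.190 in the GFP clone in index set 1. In index set 2 it was 0.185, 0.174 and 0.167 in the VP16 clone and 0.128, 0.113 and 0.117 in the GFP clone. These ratios did not overlap between the sets, and within index set 2 every VP16 library lay above every GFP library for both ratios.

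**Figure D4:**
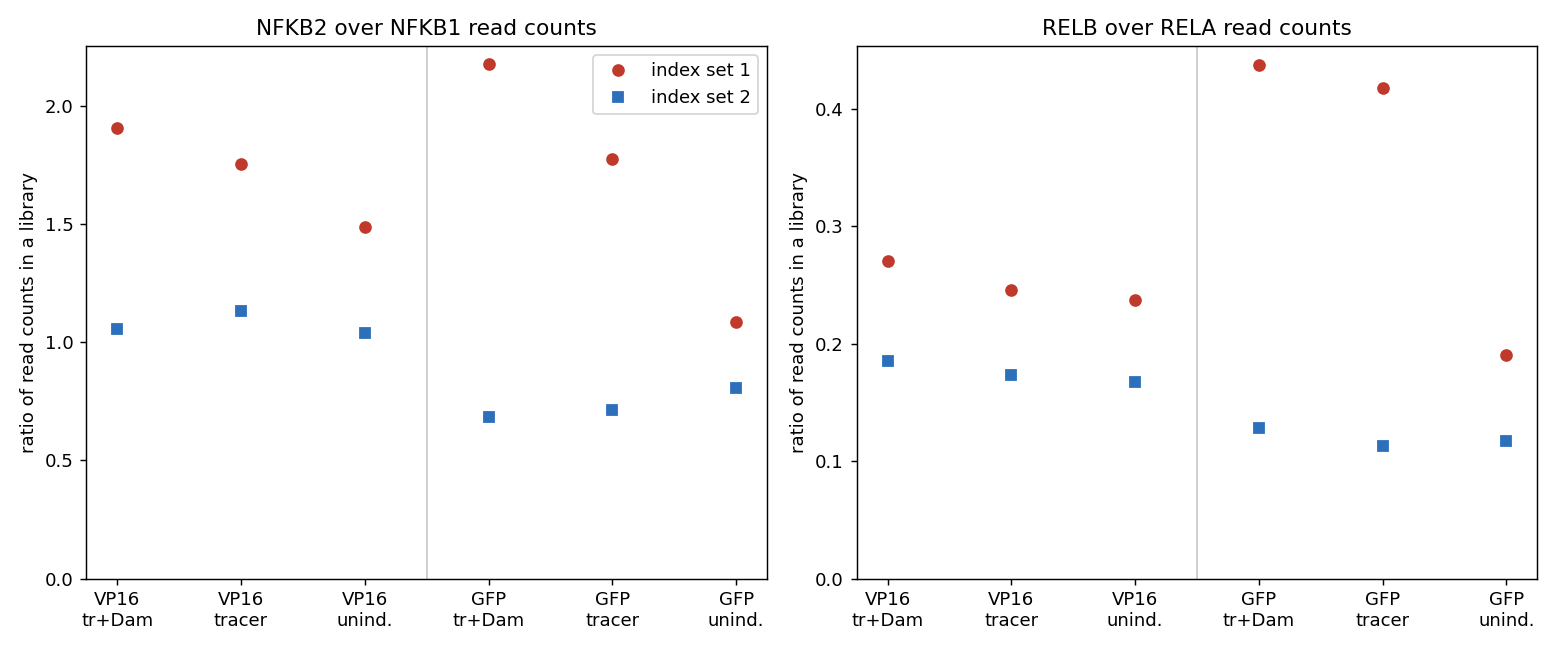
Ratio of read counts within each library for NFKB2 over NFKB1 (left) and RELB over RELA (right), by clone and condition, with index set 1 as red circles and index set 2 as blue squares. Index set 1 lay above index set 2 in each of the 6 groups for both ratios.

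Among the 10 genes, correlations of log2 CPM are given as a description, without a test, since the libraries share clones and index sets. NFKB2 and RELB had r = 0.986 over 12 libraries and 0.951 over the 10 without the libraries that stood apart, and RELB and NFKBIE had 0.986 and 0.969. NFKB1 and RELA had 0.852 and 0.613. NFKB1 and NFKB2 had 0.554 over 12 libraries and -0.707 over 10, and NFKBIA and NFKB2 had 0.240 over 12 and 0.915 over 10. Of 13729 genes outside the 10, PLK3 (0.988), CERS5 (0.981), SIL1 (0.979), RNF144B (0.979) and ARHGAP30 (0.979) followed the mean of the 10 genes most closely over 12 libraries. Over the 10 libraries these were C3 (0.998), SULF2 (0.994), GRINA (0.994), CDKN1A (0.994) and PHLDA3 (0.992), with no gene in common.

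The rest of the pathway is given for the index sets, by list, to be read against the 28.2% of all genes called (15.6% higher, 12.6% lower). Of 5 other Rel and I-kappa-B genes none was higher and REL, the c-Rel subunit, was lower in index set 1, at -0.45 ± 0.10 (adjusted p = 0.017), with a list median of 0.12. NFKBIB, for I-kappa-B beta, had 0.50 ± 0.16 (adjusted p = 0.052). Of 10 I-kappa-B kinase subunits and upstream kinases, none was higher and 2 were lower (20% called), with a median of 0.01. These were MAP3K14, for NIK, at -0.31 ± 0.05 (adjusted p = 0.0051), and MAP3K7, for TAK1, at -0.20 ± 0.06 (adjusted p = 0.031). MAP3K14 had 68.4, 77.1 and 84.0 CPM in the VP16 clone and 68.5, 70.1 and 71.9 CPM in the GFP clone in index set 1, against 91.2, 100.6 and 93.5 CPM in the VP16 clone and 84.6, 91.4 and 83.8 CPM in the GFP clone in index set 2. In each group the library of index set 1 was the lower one.
Of 21 receptors and adaptors 19 were tested, with 5 higher, 1 lower and a median of 0.08, so that 31.6% were called, near the 28.2% of all genes. TLR3, the endosomal receptor of double-stranded RNA, was higher by 1.41 ± 0.18 (adjusted p = 0.0016), the TNF receptor adaptor TRADD by 0.46 ± 0.08 (adjusted p = 0.0050), and TRAF5 was lower at -0.53 ± 0.09 (adjusted p = 0.0039). Of 12 other negative regulators 10 were tested, with 3 higher, 1 lower and a median of 0.22 (40% called). The A20-binding proteins TNIP1 and TNIP2 were higher by 0.35 ± 0.05 (adjusted p = 0.0031) and 0.36 ± 0.06 (adjusted p = 0.0035), and FAM105B, for the linear-ubiquitin protease OTULIN, was lower at -0.32 ± 0.08 (adjusted p = 0.027).

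Target genes of the factor were split into secreted and cellular products. Of 21 cytokines and chemokines 13 were tested, with 4 higher, none lower and a median of 1.09. All calls were upward, so the 30.8% called is to be read against the 15.6% of all genes that were higher. In either direction 28.2% of all genes were called. CCL5 was higher by 2.90 ± 0.32 (adjusted p = 0.00093), IL8 by 1.70 ± 0.46 (adjusted p = 0.028) and CSF1, a macrophage growth factor, by 0.50 ± 0.07 (adjusted p = 0.0019). CCL5 had 32.5, 30.7 and 25.2 CPM in the VP16 clone and 16.8, 9.70 and 6.47 CPM in the GFP clone in index set 1, against 6.37, 4.80 and 6.19 CPM in the VP16 clone and 1.01, 0.325 and 0.915 CPM in the GFP clone in index set 2. The sets of CCL5 did not overlap. IL8 had 14.2, 10.7 and 8.30 CPM in the VP16 clone and 52.6, 65.2 and 7.80 CPM in the GFP clone in index set 1, against 6.33, 5.64 and 4.78 CPM in the VP16 clone and 6.36, 5.06 and 5.29 CPM in the GFP clone in index set 2. The 2 libraries that stood apart had the highest IL8. Of 18 survival and surface genes 16 were tested, with 8 higher, none lower and a median of 0.59. Thus 50% were called, all higher, against 15.6% of all genes higher and 28.2% called in either direction. MMP9, a matrix protease, was higher by 1.77 ± 0.30 (adjusted p = 0.0046), and the cell-death inhibitors CFLAR and BCL2L1 by 0.64 ± 0.11 (adjusted p = 0.0049) and 0.54 ± 0.09 (adjusted p = 0.0038).

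Other lists were compared between the index sets too, and their part in the NF-kB values was not tested. Of all genes 28.2% were called. The share was 86.7% for interferon-stimulated genes, 50% for mitochondrial transcripts and 100% for the few blood markers tested. It was near that of all genes for endothelial (25%), epithelial (25%) and mesenchymal markers (30%), and 0% for the stress genes. The share of all genes without the 2 libraries that stood apart is given above. Of 15 interferon-stimulated genes 13 were higher in index set 1 and none lower, with a median of 1.69. The 5 mitochondrial transcripts called, of 10, were all higher, and their list summed to 31106 to 34614 CPM in index set 1 and 26178 to 29096 CPM in index set 2. All 3 blood markers that could be tested, of 11, were higher (CD68, ITGAM and CSF1R), and the list summed to 201 to 366 CPM in index set 1 and 129.7 to 204 CPM in index set 2. Endothelial markers summed to 1.57 to 5.00 CPM in index set 1 and 0.683 to 2.23 CPM in index set 2, with 1 of the 4 tested higher. Of 4 epithelial markers tested, of 10, ESRP1 alone was called, higher by 3.34 ± 0.87 (adjusted p = 0.026), and its high values are those of the 2 libraries that stood apart. Of 10 mesenchymal markers tested, of 12, 2 were higher and 1 lower; the lower was FN1, for fibronectin, at -0.97 ± 0.19 (adjusted p = 0.0078). None of the 14 stress genes of the ATF4 and CHOP list was called, at a median of 0.18; without the 2 libraries that stood apart 3 were higher and 9 lower.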

How the data were processed

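Total RNA was sequenced from 12 libraries. The authors deposited raw read counts, as whole numbers for each Ensembl gene with its symbol and GRCh37 position. Per the submitters' processing notes, the tools were TopHat 1.4.0 with Bowtie 0.12.7 on GRCh37, followed by HTSeq. The overlap mode and strand setting of HTSeq are not stated. The 59 rows without annotation were kept. Library totals lay between 18774905 and 24827396 counts.

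Genes were kept by filterByExpr and scaled by TMM in edgeR 4.0.16 (R 4.3.3). The quasi-likelihood model had robust dispersions and a coefficient for each group over all 12 libraries, leaving 6 residual degrees of freedom; the index-set comparison added 1 coefficient. P-values were adjusted by Benjamini-Hochberg over all 17262 genes, with a threshold of 0.05. The SE is the absolute log2 change divided by the square root of F. For log2 CPM a prior count of 2 was used. Exon lengths came from the GENCODE annotation and promoter windows from RefSeq. The scripts were tested on simulated counts.

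The replicate numbers pair the libraries: same-numbered libraries of all 15 pairs of groups deviated together (0.415 to 0.858), and the titles reuse 1 set of index sequences per number. Replicates were not duplicates, since their counts differed by a chi-square of 19.6 to 126 per degree of freedom. Alternatives were DESeq2 1.42.0, limma-voom (limma 3.58.1), RLE factors, 2 other filters on low counts, fits on fewer groups, the replicate block and leaving out libraries. The index-set comparisons within 1 clone and the clone by set term were added after seeing the data. The 10 genes and the gene lists were chosen with earlier results of these data known. All 10 genes are given in every library. Of each other list at most 3 genes could be named, by smallest p at a mean of at least 1 CPM.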

Additional observations from a re-analysis of the deposited data

How the results depend on the processing

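No value of the 10 genes in the tracer and Dam-LaminB1 comparisons passed the threshold under any alternative. Over all genes, the counts called in these comparisons were 0 and became 139 (VP16 tracer), 13 (VP16 Dam-LaminB1 against tracer) and 1573 (VP16 Dam-LaminB1 against uninduced) with the VP16 clone's 6 libraries and the replicate block. Without both GFP libraries that stood apart and with the replicate block, they were 1 for each tracer comparison, each Dam-LaminB1 against tracer comparison and the difference between clones in the Dam-LaminB1 response, and 56 for VP16 Dam-LaminB1 against uninduced. Leaving out 1 library gave 0 to 1 genes for the GFP tracer comparison and 0 to 1 for GFP Dam-LaminB1 against tracer.

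Between the uninduced clones, the 48 genes called became 220 without a count filter, 288 with DESeq2, 327 with the replicate block, 1 with only the groups compared, 129 without both GFP libraries that stood apart, and 3685, with 4 of the 10 genes, when the block was added; leaving out 1 library gave 1 to 5. Over all conditions, 1318 genes became 2201 with DESeq2, 3609 with the replicate block and 5855 without both libraries and with the block, and 543 to 2221 with 1 library left out (543 to 648 without any 1 VP16 library, 602 and 750 without a GFP uninduced library, 782 without the GFP tracer library of index set 1, 2221 without the GFP tracer with Dam-LaminB1 library of index set 2). Of the 10 genes, 1 was called, against 2 without a filter, 2 with DESeq2, 3 with the replicate block, 5 without both libraries and with the block, and 1 to 2 with 1 library left out. NFKB2 and BIRC3 changed sign to 0.15 and 0.52 without both libraries and with the block. In all fits without both libraries only 9 of the 10 genes were tested, since ICAM1 fell below the count filter.

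Between the index sets, 4869 genes and 8 of the 10 became 892 and 4 in the GFP clone alone, against 7025 and 9 (of 9 tested) in the VP16 clone alone, 6947 and 9 without both libraries and 6766 and 9 in the 4 groups without those libraries. NFKB1 changed sign to -0.12 in the 4 groups without those libraries, -0.13 without both libraries and -0.14 in the VP16 clone alone. With all libraries and no count filter, 4202 genes and 7 of the 10 were called between the index sets. A filter of at least 1 CPM in 4 libraries gave 4183 genes and 7 of the 9 tested. The clone by set difference, with 0 genes, had 530 without both libraries. The cause of these changes was not tested. Counting error limits ICAM1, which had 0 to 20 counts in a library. Beside RELA and TNFAIP3 in the clone comparison over all conditions, the replicate block alone changed no call among the 10 genes.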
